A study of Rattus norvegicus with 164 samples.

Results

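The genes described here are the 198 zinc finger protein genes of the rat whose symbol is Zfp followed by a number, that lie on an autosome and that reached a mean of at least 3 in log2(CPM + 1), where CPM is a gene's count scaled to 1000000 per library, over 130 libraries of prelimbic cortex. They were picked by symbol and by that mean, from 38354 genes in all. Of 283 such symbols, 276 lay on autosomes and 7 on a sex chromosome. Zfp532, Zfp36 and Zfp503 were left out by name, and 75 of the remaining 273 had a mean under 3, 59 of them with a mean of at least 1. Just inside the limit were Zfp878 at 3.05, Zfp948 and Zfp366 at 3.02, Zfp28 at 3.02 and Zfp521 at 3.00, and just outside it were Zfp786, which rounds to 3.00, Zfp606, Zfp524, Zfp77 and Zfp641, the lowest of these at 2.93. All 198 code for protein in the RefSeq annotation of rat build GRCr8.

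Most proteins of this kind bind DNA through arrays of C2H2 zinc fingers, small loops that hold a zinc ion and that each touch a few bases. Many also carry a KRAB domain, which recruits the corepressor Trim28 (KAP1) and with it the histone methyltransferase Setdb1 and heterochromatin proteins, and these are known for silencing transposable elements. KRAB zinc finger genes multiplied by local duplication and therefore often stand in clusters of near-identical copies. Other members act as transcription factors of development, in RNA binding or in ubiquitin and SUMO pathways.

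Polyadenylated RNA was sequenced from the prelimbic cortex, a medial prefrontal region, of heterogeneous stock rats, an outbred population descended from inbred founder strains. The libraries fall into 68 whose animal has a decimal identifier, 11 whose code beginning with E21DCD was reassigned, and 51 with other E21DCD codes. The labels hold no genotype, treatment, sex or age, and p-values measure the spread between these libraries. Summed counts ran from 15.1 to 55.95 per library, in units of 1000000. In 11 decimal libraries the mean of 12 striatal projection neuron markers (8.01 to 8.54) exceeded that of 10 glutamatergic neuron markers (2.17 to 5.16), against the cortical label; in the 112 libraries outside both sets described here the striatal markers lay at 3.63 to 5.48 and the glutamatergic at 7.17 to 7.63. Another 7 libraries, decimal replicate 15 and 6 of the E21DCD group, stood at an end of the first principal component of the remaining 119 (score over 0.2). They are called the striatal-like and the component-end libraries, and the main counts are given with and without them.

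The members had a median of 0.603% of all counts in a library, and 0.299% in the lowest, decimal replicate 15. Members differed widely in level. By mean level the highest were Zfp106 at 8.48 log2(CPM + 1), Zfp365 at 7.73, Zfp180 at 7.57, Zfp706 at 7.55, Zfp483 at 7.29, Zfp91 at 7.18, Zfp664 at 6.66, Zfp148 at 6.65, Zfp638 at 6.33 and Zfp717 at 6.29. Counts were not divided by transcript length, so these are shares of counts and not an order of RNA molecules. Zfp106 is an RNA-binding protein whose loss in mice causes neuromuscular disease, Zfp365 is known in human cells as a partner of DISC1 in neurite growth, Zfp91 is a ubiquitin ligase in human cells and Zfp638 takes part in silencing unintegrated retroviral DNA in human cells. The median member level was 4.26 log2(CPM + 1), against 5.28 over 10671 autosomal genes with a mean of at least 3. Members lay on all 20 autosomes, with 61 of the 198 (30.81%) on chromosome 1, which holds 12.82% of those genes.

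The zinc finger genes varied less between libraries than genes of the same mean, given here as a description with no test. As a measure, a gene's SD was set over the SD that a lowess curve gives at its mean, and the median of this ratio was 0.889 for the members and 0.986 for the 10671 genes, while 127 members (64.1%) and 51.4% of genes lay under 1. Only 3 members (1.52%) reached 2 times the trend, against 7.86% of all autosomal genes of this mean, and 5 did so without decimal replicate 15. Without the striatal-like libraries 4 members reached it, against 4.49% of genes, and without both sets 2 did, against 4.72%. Median counts per member were 167 to 9395. Counting error alone, taken as Poisson from the estimated count in each library, gives an SD of 0.015 to 0.095 on the log2 scale. Every member's SD was at least 1.74 times that. Error in sharing reads among near-identical copies is not part of it.

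**Figure D1:**
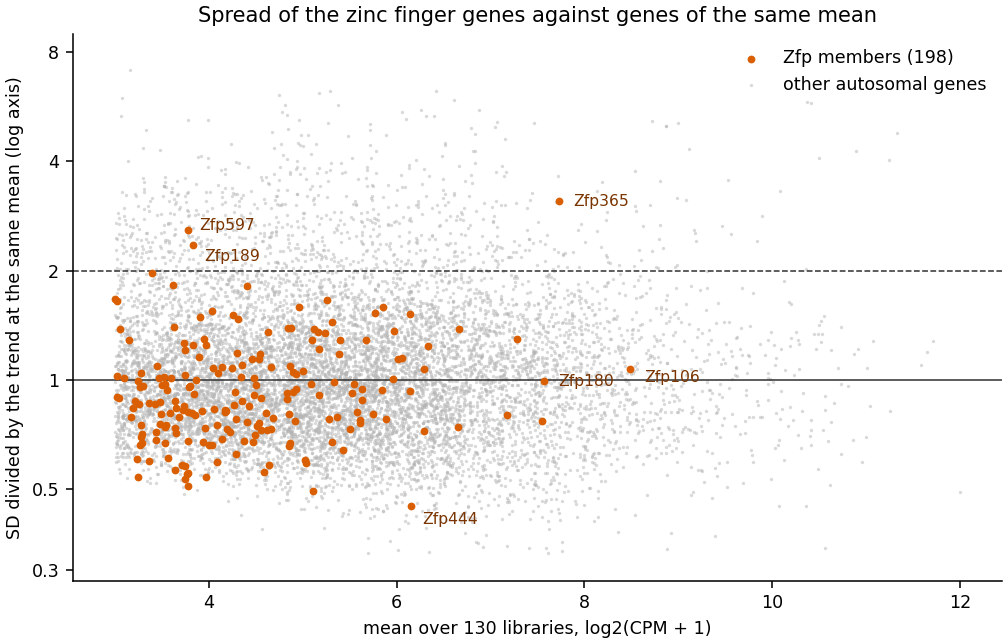
SD over 130 libraries divided by the trend at the same mean (log axis) against the mean level in log2(CPM + 1); each point is a gene, orange for the 198 members and grey for other autosomal genes with a mean of at least 3, and the dashed line marks 2 times the trend. Zfp365, Zfp597 and Zfp189 lie above that line, and 127 members lie under 1.

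Zfp365, on chromosome 20, had the widest spread for its mean, an SD of 0.78 and 3.11 times the trend. It lay at 6.95 to 7.55 (median 7.32) in the striatal-like libraries, at 2.51 to 7.09 (median 5.75) in the component-end libraries and at 7.50 to 8.36 (median 7.94) in the other 112. The component-end libraries did not overlap the 112, and without both sets its ratio was 1.18.

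Zfp597, on chromosome 10 and an imprinted gene in humans, had an SD of 0.68 and a ratio of 2.59. It lay at 3.10 to 3.86 (median 3.39) in the striatal-like libraries, at 0.46 to 1.89 (median 1.67) in the component-end libraries and at 2.93 to 4.61 (median 4.01) in the others. The component-end libraries lay wholly below all the others, and without both sets the ratio was 1.60.

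Zfp189, which has been studied in the prefrontal cortex of mice as a regulator of resilience to stress and which lies on chromosome 5, kept its wide spread. Its SD was 0.62 and its ratio 2.36, with a ratio of 2.17 without both sets. It lay at 4.38 to 5.70 (median 5.05) in the striatal-like libraries, at 1.09 to 3.33 (median 2.75) in the component-end libraries and at 2.93 to 4.67 (median 3.77) in the other 112. Here the spread within the 112 libraries is itself wide, with an SD of 0.40.

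The next ratios were 1.97 for Zfp319, 1.83 for Zfp467, 1.82 for Zfp853, 1.67 for Zfp521, 1.66 for Zfp462, 1.66 for Zfp366, 1.59 for Zfp831, 1.59 for Zfp536 and 1.55 for Zfp9. At the other end, Zfp444 had the lowest ratio, 0.449, with a level of 5.65 to 6.35 over all libraries. Zfp777 followed at 0.496, Zfp668 at 0.510, Zfp212 at 0.533 and Zfp18 at 0.541. Zfp777 ran from 4.73 to 5.42 and Zfp18 from 2.84 to 3.64, so these were the steadiest members for their means.

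Shared variation was then removed by regressing out the first 10 principal components of all autosomal genes, which took a median of 76.6% of the variance of a member and 84.5% of that of an autosomal gene. After this, 5 members reached 2 times the trend of the residual SD, against 4.31% of autosomal genes. They were Zfp189 at 2.52, Zfp180 at 2.52, Zfp347 at 2.23, Zfp366 at 2.05 and Zfp267 at 2.02, followed by Zfp365 at 1.78, Zfp9 at 1.74, Zfp141 at 1.68, Zfp771 at 1.64, Zfp61 at 1.50, Zfp612 at 1.44 and Zfp94 at 1.39. Zfp180 and Zfp267 had raw ratios of 0.99 and 0.98, so their spread was average before the components were removed and wide after it. The components took 48.1% of the variance of Zfp180 and 33.6% of that of Zfp267.

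Separated levels were sought by fitting 2 normal curves of the same width to each gene. A gene counted as separated if BIC dropped by 10 or more against 1 curve, if the curves' centres were 4 SDs of a curve and 1 log2 unit apart or more, and if the rarer level took in 5% of libraries or more. In all 13 of the 198 members counted, against 11.3% of autosomal genes of this mean, and 12 did without the striatal-like libraries, against 5.39%. Without both library sets 0 members counted, against 0.412% of genes. Without decimal replicate 15 alone 4 members counted, and the share of all genes was not computed for that setting. The component-end libraries then number 6, under 5% of those left, so a level of these alone can miss the size limit. The sets were themselves defined from expression, so what follows is a description. In bulk tissue fewer cells of a type and less RNA per cell cannot be told apart.

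In 3 members the 11 striatal-like libraries formed the smaller level by themselves. Zfp467, a promoter of adipocyte differentiation in mice, lay at 4.83 to 5.33 (median 5.11) there, against 2.95 to 3.89 (median 3.47) in the other 119. Zfp521, which drives neural differentiation of mouse embryonic stem cells, lay at 4.13 to 4.70 (median 4.37) there, against 2.02 to 3.59 (median 2.90) in the other 119. Zfp853 went the other way, at 2.73 to 3.30 (median 3.07) there, against 3.78 to 4.93 in the other 119. Zfp367 was lower in 10 of the 11 together with 2 component-end libraries, at 2.31 to 3.73, against 3.88 to 4.79 in the rest.

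Of all members, 5 lay wholly above the other 119 libraries in the striatal-like ones (4.46% of autosomal genes did), namely Zfp467, Zfp521, Zfp516, Zfp775 and Zfp710, and 1 lay wholly below (2.97%), Zfp853. Zfp516, an activator of brown fat genes in mice, lay at 4.48 to 5.17 in the striatal-like libraries, against 1.78 to 4.40 in the other 119. With median-of-ratios scaling 4 members lay wholly above and 2 wholly below, against 3.44% and 5.94% of genes.

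**Figure D2:**
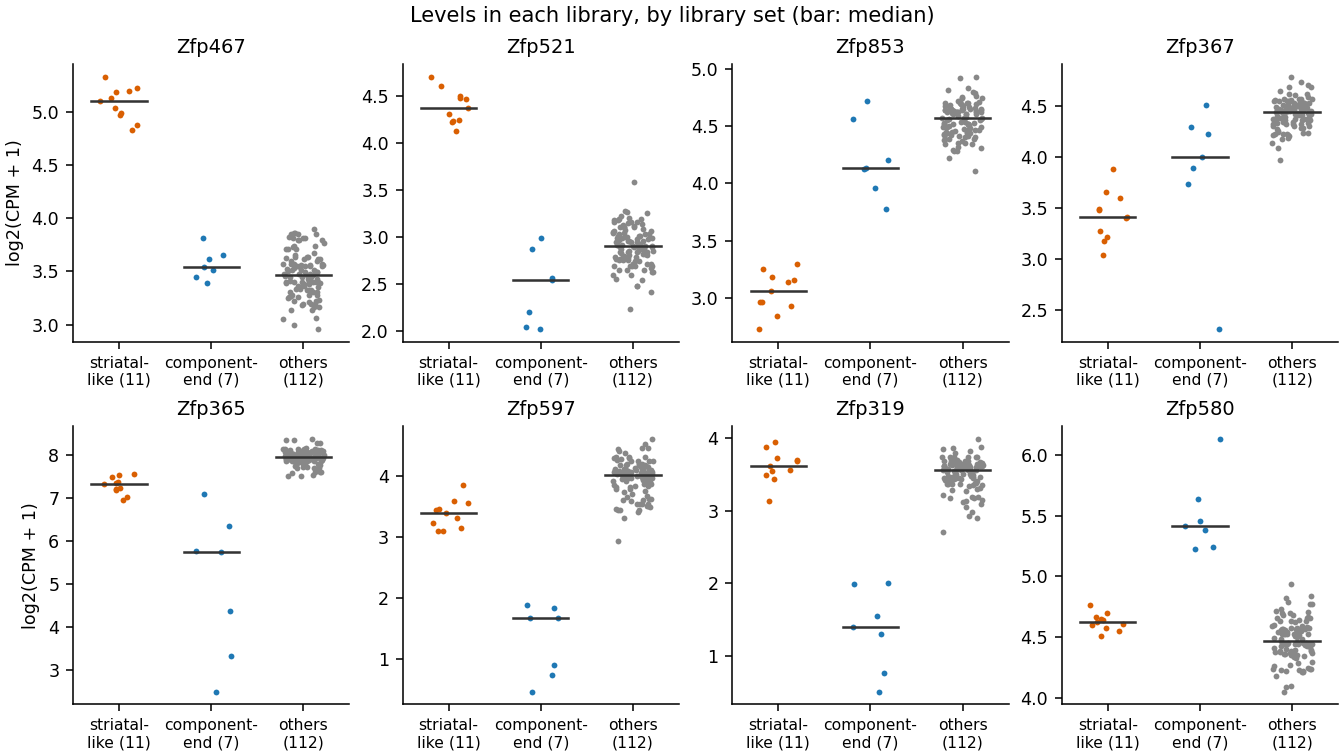
Levels of 8 members in log2(CPM + 1), each point a library, for the 11 striatal-like, the 7 component-end and the 112 other libraries, with a bar at the median. Zfp467 and Zfp521 are higher and Zfp853 and Zfp367 lower in the striatal-like libraries, while Zfp365, Zfp597 and Zfp319 are lower and Zfp580 higher in the component-end libraries.

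In 8 further members the component-end libraries formed or made up most of the smaller level. Zfp580 was higher there, at 5.23 to 6.13, against 4.05 to 4.93 in the rest. Zfp507, Zfp597, Zfp319 and Zfp949 were lower in exactly those 7, Zfp319 at 0.51 to 2.00, against 2.70 to 3.99 in the rest. Zfp646 was lower in 6 of them, Zfp831 in the 7 and 1 more, and Zfp462 in the 7 and 3 more. Zfp347 alone had a lower level, 1.86 to 2.92, that was made up mostly of libraries outside both sets, 5 of 7.

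As a whole the members were lower in the component-end libraries. The mean of 171 of the 198 was lower there than in the 112, as was that of 6980 of the 10671 genes, with a median difference of -0.44 log2, against -0.24 over autosomal genes. With median-of-ratios scaling, which shifts a library's median gene by between -0.10 and 0.84, these values were 153 members (77.3%, against 53.2% of genes), -0.26 and -0.05. In CPM, 20 members (10.1%) lay wholly below the 112, against 8.12% of genes, and 3 lay wholly above (Zfp580, Zfp575 and Zfp414), against 2.06%. With median-of-ratios scaling 12 members lay wholly below and 5 wholly above, against 5.25% and 4.82% of genes. The component-end libraries also had fewer genes above 0, 20516 to 24328 (median 22800), against 22643 to 26540 (median 24218.5) in the 112, and a lower mean of interneuron markers, 5.67 ± 0.28, against 6.06 ± 0.09 in the 112 (SD). The oligodendrocyte marker mean was 8.15 ± 0.66 in the component-end libraries, against 7.64 ± 0.77 in the 112. The astrocyte marker mean was 8.17 ± 0.53, against 8.39 ± 0.19. Interneuron markers were not alike in their lowest level over the 119 libraries, whichever library held it. It was 2.37 for Gad2 (mean over 130 libraries 6.13), 2.24 for Lhx6 (4.16) and 5.87 for Slc32a1 (6.45). For the rest of the list it was 6.41 for Gad1 (7.82), 4.29 for Pvalb (5.00), 6.82 for Sst (7.45) and 4.96 for Vip (5.27). The part of these differences in the result was not tested. Among the 20 was Zfp445, a regulator of imprinting in mice, at 4.24 to 5.49 (median 5.28) in the component-end libraries, against 5.56 to 6.46 (median 6.14) in the 112. Zfp57, the other member known for imprint maintenance in mice, overlapped, at 2.56 to 4.82 (median 4.54) in the component-end libraries, against 4.43 to 5.46 (median 4.80) in the 112.

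Between the identifier groups, 27 members were higher and 11 lower in the 68 decimal than in the 51 E21DCD libraries, by limma with Benjamini-Hochberg adjustment over 15150 genes. The background was 15.1% higher and 12.6% lower, so the members' 13.6% higher is near the share of all genes and their 5.56% lower is under it. Differences between the groups ran from -0.25 to 0.46 log2, small beside the range within either group. The 11 striatal-like libraries are all decimal, and without them 5 members were higher and 2 lower, against a background of 5.29% and 3.48%. Without both sets, in 56 and 45 libraries, 18 were higher and 29 lower, against 19.2% and 15%. With median-of-ratios scaling the counts were 28 higher and 12 lower, against 14.3% and 15.7%. Without decimal replicate 15 alone, which is also the library with the lowest share of member counts, 46 members (23.2%) were higher and 10 (5.05%) lower, against 21.9% and 13.1% of the 15150 genes.

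**Figure D3:**
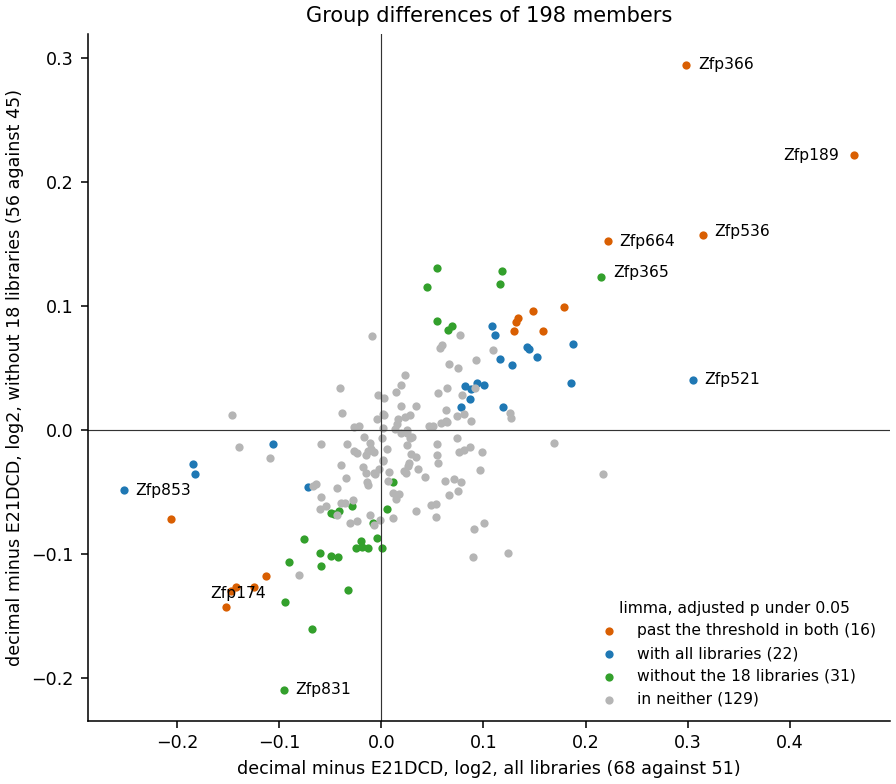
Difference in mean level, decimal minus E21DCD, in log2 for each of the 198 members, with all libraries on the x axis and without the striatal-like and component-end libraries on the y axis; colours give the limma calls at an adjusted p under 0.05. In all, 16 members passed in both, 22 with all libraries alone and 31 without the sets alone.

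With all libraries, though not without the striatal-like libraries or without both sets, the largest rise was that of Zfp189. It lay at 1.09 to 5.70 (median 3.95) in the decimal and at 2.42 to 4.63 (median 3.51) in the E21DCD libraries, so the groups overlapped. The difference was 0.46 ± 0.11 log2 (SE; limma adjusted p = 0.000916), 0.27 ± 0.095 without the striatal-like libraries (adjusted p = 0.0576) and 0.22 ± 0.08 without both sets (adjusted p = 0.0178).

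Zfp536, a repressor of neuronal differentiation in mouse cells, lay at 4.11 to 6.33 (median 4.99) in the decimal and at 3.99 to 5.30 (median 4.81) in the E21DCD libraries. It rose by 0.32 ± 0.07 log2 (limma adjusted p = 0.000283), and by 0.16 ± 0.05 without both sets (adjusted p = 0.0182). Zfp366, known in human cells as the nuclear receptor cofactor DC-SCRIPT, lay at 0.55 to 4.01 (median 3.24) in the decimal and at 2.14 to 3.38 (median 2.94) in the E21DCD libraries. It rose by 0.30 ± 0.08 log2 with all libraries (limma adjusted p = 0.0052) and by 0.29 ± 0.08 without both sets (adjusted p = 0.002).

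Zfp521 had a difference of 0.31 ± 0.09 log2 (limma adjusted p = 0.0063), which was 0.07 without the striatal-like libraries (adjusted p = 0.43). Zfp853 likewise fell by 0.25 on the log2 scale (limma adjusted p = 0.0163), and its difference was -0.01 without them (adjusted p = 0.872). Both are among the members whose striatal-like levels did not overlap the rest. The other large rises with all libraries were those of Zfp664 (0.22), Zfp111 (0.19), Zfp775 (0.19), Zfp219 (0.18), Zfp68 (0.16) and Zfp667 (0.15). Zfp111, Zfp775 and Zfp667 did not pass limma's threshold in either restricted fit, with differences of 0.07, 0.04 and 0.06 without both sets (adjusted p = 0.142, 0.4 and 0.27). Zfp664 did not pass without the striatal-like libraries (0.13, adjusted p = 0.152) and passed without both sets (0.15, adjusted p = 0.0024). The other large falls were those of Zfp697 (-0.21), Zfp423 (-0.18), Zfp703 (-0.18), Zfp174 (-0.15), Zfp800 (-0.15), Zfp451 (-0.14), Zfp712 (-0.13), Zfp281 (-0.11) and Zfp512 (-0.11). Of these 9, Zfp174 alone also passed without the striatal-like libraries. Without both sets Zfp423 (-0.03, limma adjusted p = 0.566), Zfp703 (-0.04, adjusted p = 0.489) and Zfp512 (-0.01, adjusted p = 0.619) did not pass, and the other 6 passed at -0.07 to -0.14. Among them Zfp423 is an Ebf partner in cerebellar and fat development, Zfp451 a SUMO ligase in human cells and Zfp281 a regulator of pluripotency in mouse cells.

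In all 3 of these fits, 5 members were higher (Zfp536, Zfp366, Zfp219, Zfp68 and Zfp870) and 1 was lower, Zfp174. Zfp68 lay at 4.67 to 5.73 (median 5.32) in the decimal and at 4.43 to 5.42 (median 5.23) in the E21DCD libraries, a difference of 0.16 ± 0.03 log2 (limma adjusted p = 0.000162), and of 0.08 ± 0.02 without both sets (adjusted p = 0.003). Zfp174, which has a SCAN domain in humans, lay at 2.70 to 3.95 (median 3.23) in the decimal and at 2.77 to 4.68 (median 3.32) in the E21DCD libraries, a difference of -0.15 ± 0.05 log2 (limma adjusted p = 0.0171). Zfp706, known in mouse embryonic stem cells for the exit from pluripotency, was lower in the 2 restricted fits, with differences of -0.12 log2 without the striatal-like libraries (limma adjusted p = 0.0042) and -0.07 without both sets (adjusted p = 0.016). Its difference with all libraries was -0.04 (adjusted p = 0.411).

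**Figure D4:**
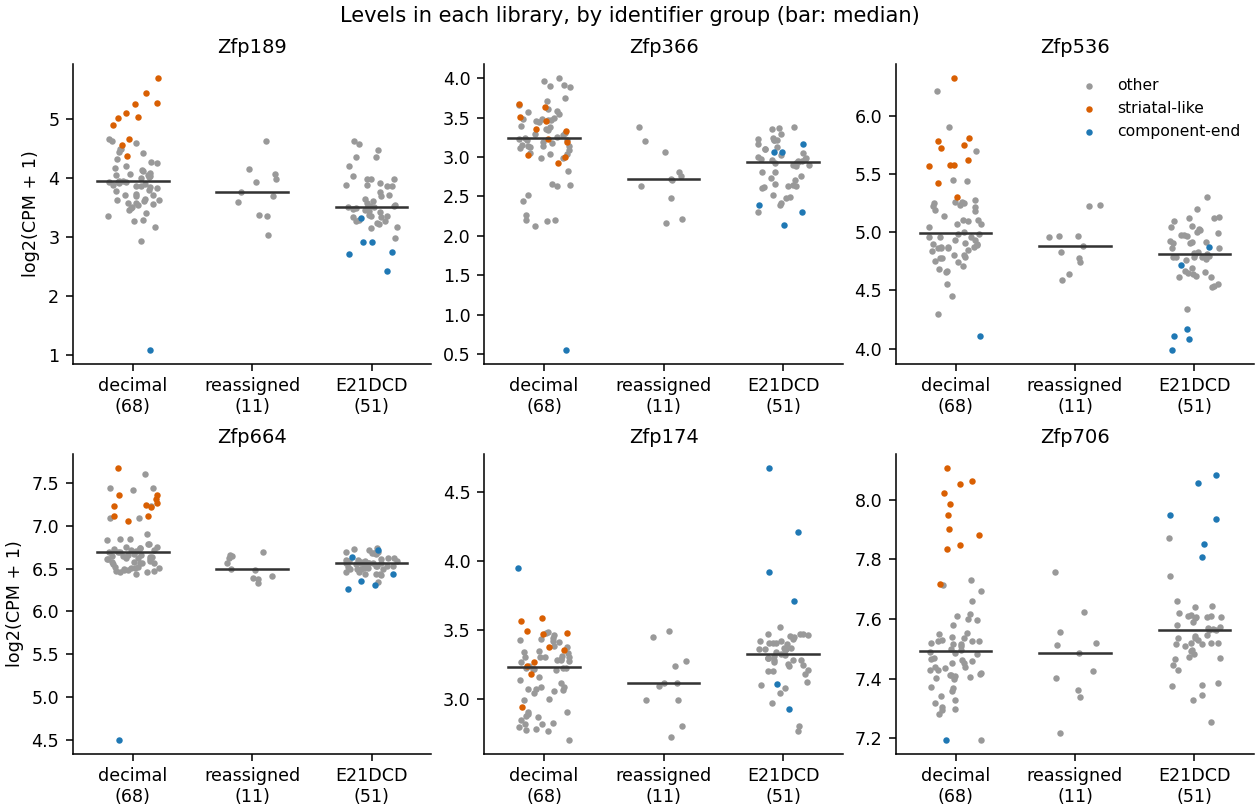
Levels of 6 members in log2(CPM + 1), each point a library, for the 68 decimal, 11 reassigned and 51 E21DCD libraries, with a bar at the median and the striatal-like and component-end libraries in colour. The groups overlap in every panel, and the striatal-like libraries are at the upper end of the decimal group for Zfp189, Zfp536, Zfp664 and Zfp706.

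Oligodendrocyte markers moved with these groups. The mean of 8 of 8 such markers, among them the myelin genes Mbp, Mog and Mag, was 6.47 to 10.25 in the decimal and 6.02 to 8.86 in the E21DCD libraries, with no marker at 0. Outside both sets it was 8.00 ± 0.77 in 56 decimal and 7.25 ± 0.63 in 45 E21DCD libraries (SD). In the same libraries the mean of microglial markers was 5.19 ± 0.24 in the decimal and 5.01 ± 0.13 in the E21DCD group, and that of meningeal fibroblast markers 3.99 ± 0.43 in the decimal and 4.27 ± 0.38 in the E21DCD group. Over the 112 libraries 23 members (11.6%) were positively and 68 (34.3%) negatively correlated with the oligodendrocyte marker mean. The shares of 15150 genes were 28.4% and 28.9% (permutation test, Benjamini-Hochberg adjusted p under 0.05). The values of r that follow are with the same mean. Zfp664 had r = 0.81 and rho = 0.75 (permutation p = 1e-05 for each, the smallest that 100000 permutations give, adjusted p = 4.14e-05 for r), and r = 0.77 without the 2 farthest libraries. Within the groups r was 0.87 in the decimal and 0.58 in the E21DCD and reassigned libraries.

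Zfp536 had r = 0.67 and rho = 0.61 with the same markers, and Zfp24, which is required for myelination in mice, r = 0.60 and rho = 0.53 (permutation adjusted p = 4.14e-05 for r in both). Without the 2 farthest libraries r was 0.61 for Zfp536 and 0.53 for Zfp24. In the decimal libraries r was 0.75 for Zfp536 and 0.78 for Zfp24, and in the E21DCD and reassigned ones 0.41 and 0.12. The difference between the groups' correlations was not tested. At the other end Zfp831 had r = -0.63 and rho = -0.57, and Zfp483 r = -0.63 and rho = -0.56 (permutation adjusted p = 4.14e-05 for r in both), with -0.58 and -0.59 without the 2 farthest libraries. Within the decimal and within the other libraries r was -0.62 and -0.47 for Zfp831 and -0.58 and -0.53 for Zfp483. Both genes were lower in the decimal libraries without both sets, with differences of -0.21 log2 for Zfp831 (limma adjusted p = 0.000252) and -0.16 log2 for Zfp483 (adjusted p = 0.0034). Zfp189 and Zfp68, both higher in the decimal group, had r of 0.01 and 0.02 with these markers (permutation adjusted p = 0.919 and 0.858). In the decimal libraries r was -0.35 for Zfp189 and -0.14 for Zfp68, and in the E21DCD and reassigned ones 0.16 and -0.17. The part of RNA of these cell types in the group differences was not tested.

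Between the 11 reassigned and the 51 E21DCD libraries no member differed at an adjusted p under 0.05 by limma, and neither did any of the 15150 genes, a background of 0%. At an unadjusted p under 0.05 there were 10 members and 634 of the 15150 genes, and the lowest adjusted p of a member was 0.912. Zfp267 lay at 5.00 to 5.43 (median 5.30) in the reassigned and at 4.56 to 5.44 (median 5.11) in the E21DCD libraries, a difference of 0.17 ± 0.069 log2 (SE; limma adjusted p = 0.912). Member differences ran from -0.23 for Zfp174 to 0.35 for Zfp597. This comparison shares its E21DCD libraries with the decimal one.

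Of 29 genes of the KRAB corepressor pathway, all of which were tested, 2 were higher and 3 lower in the decimal than in the E21DCD libraries, 0 and 2 without the striatal-like libraries, and 0 and 6 without both sets (limma adjusted p under 0.05). The shares of all genes in these 3 fits are those given with the members, 15.1% and 12.6%, 5.29% and 3.48%, and 19.2% and 15%. Trim28 itself, the cofactor that KRAB domains bind, had a difference of -0.08 ± 0.03 log2 (limma adjusted p = 0.0155) and of -0.06 ± 0.02 without both sets (adjusted p = 0.0064). Setdb1 did not pass in either, at 0.06 and -0.03. Chd4, a helicase of the NuRD complex, was higher by 0.16 with all libraries (limma adjusted p = 0.0161), and its difference was 0.01 without both sets. Zfp410, a member known in human and mouse cells for activating Chd4, had differences of 0.07 (limma adjusted p = 0.196) and, without both sets, 0.08 (adjusted p = 0.0056). The median SD ratio of the 29 was 0.961, and 0 reached 2.

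Of the members, 107 stood in 33 clusters in which neighbouring starts lay at most 500 kb apart, and 91 stood in none. On chromosome 1 there were 12 clusters with 50 members, and the largest, with starts from 88780342 to 89935604 in the deposited table, held the 9 genes Zfp180, Zfp111, Zfp108, Zfp61, Zfp94, Zfp428, Zfp575, Zfp574 and Zfp526. Clustered members had a median SD ratio of 0.834, against 0.964 for the 91 others, and after 10 components 0.923, against 0.934. Inside clusters the 184 member pairs had a mean r of 0.061 after 10 components, against 0.015 for 17040 pairs on different chromosomes. The pairs with r of at least 0.3 numbered 8 (4.35%), against 4.24% of 55767 pairs with 1 or no member at most 500 kb apart and 1.09% of member pairs on different chromosomes. By permutation 16 cluster pairs had a positive r at an adjusted p under 0.05 and 2 a negative one, against 8.15% and 3.47% of 55951 pairs. With no components removed the mean was 0.264 inside clusters and 0.249 across chromosomes.

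Of the 8 pairs, 3 join Zfp180, Zfp61 and Zfp94 of the largest cluster, and without them the mean r of the other 181 pairs was 0.051. Zfp180 and Zfp61, 205 kb apart, had r = 0.75 and rho = 0.69, and r = 0.72 without the 2 farthest libraries. Zfp180 and Zfp94, 227 kb apart, had r = 0.69 and rho = 0.62, and r = 0.65 without the 2 farthest. Zfp61 and Zfp94, 21.8 kb apart, had r = 0.67 and rho = 0.58, and r = 0.63 without the 2 farthest. Each had a permutation p of 1e-05, the smallest that 100000 permutations give, and an adjusted p of 0.000448 over 55951 pairs. Between Zfp180 and Zfp61 r was 0.74 in the decimal libraries, 0.76 in the E21DCD and reassigned ones and 0.75 without both sets. For Zfp180 with Zfp94 these values were 0.69, 0.74 and 0.74, and for Zfp61 with Zfp94 0.70, 0.66 and 0.72.

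**Figure D5:**
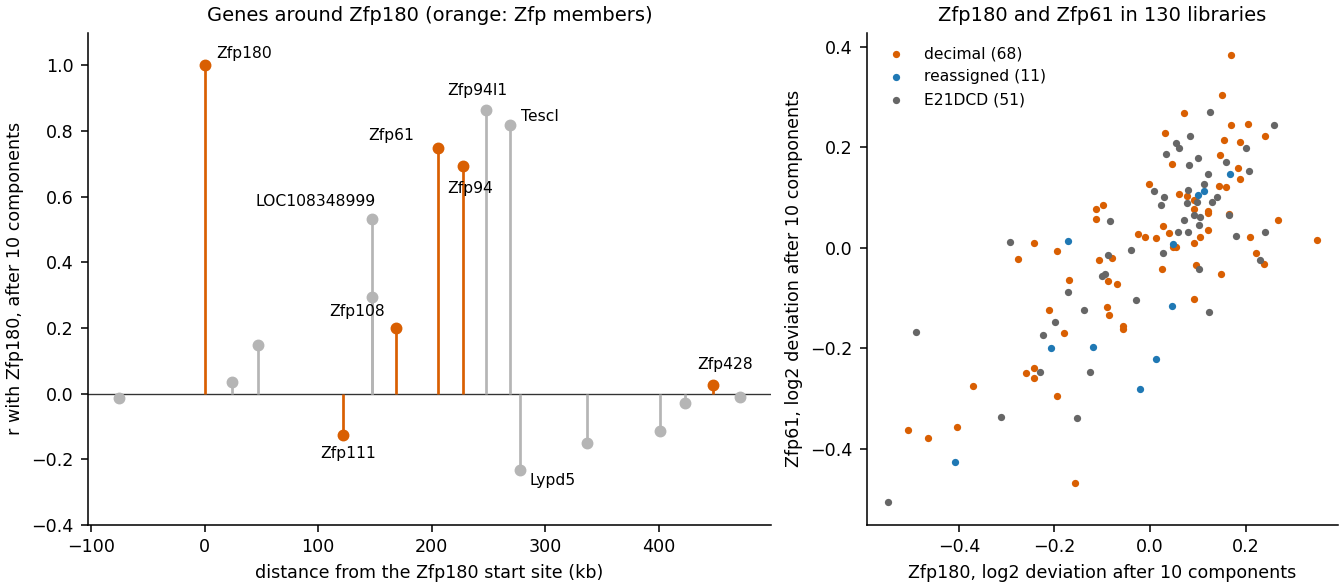
Left, r with Zfp180 after 10 components for the tested genes around it, against the distance of their start sites in kb, with members in orange. Right, log2 deviations of Zfp61 against those of Zfp180 after 10 components in each of the 130 libraries, coloured by identifier group; r is 0.75. Zfp61 and Zfp94 stand high, while Zfp111, Zfp108 and Zfp428 between or beside them stand at -0.13, 0.20 and 0.03.

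Not all members of that cluster moved together. Zfp111 and Zfp108 lie between Zfp180 and Zfp61 and had r of -0.13 and 0.20 with Zfp180, and Zfp428, 447 kb from Zfp180, had 0.03. The neighbours Zfp94l1 and Tescl, which are no members, had r of 0.86 and 0.82 with Zfp180. Other genes that are no members moved with Zfp180 too, Apoc1, 301 kb away (r = 0.77), and Trappc6a, 494 kb away (r = 0.72). Bcam, 223 kb away (r = -0.57), and LOC108349942 on chromosome 2 (r = -0.73, mean level 1.02) ran opposite to it. The shared movement is therefore not confined to zinc finger genes. Zfp94l1 is named as a copy of Zfp94, and reads that fit both could have been split between them, so the values of Zfp94 are uncertain. In level, Zfp180 lay at 6.31 to 8.18 (median 7.66) in the decimal and at 6.93 to 7.87 (median 7.58) in the E21DCD libraries, so the groups overlapped. Zfp61 lay at 3.64 to 4.83 (median 4.34) in the decimal and at 3.68 to 4.59 (median 4.24) in the E21DCD libraries. Zfp94 lay at 2.48 to 3.58 (median 3.23) in the decimal and at 2.37 to 3.59 (median 3.20) in the E21DCD libraries.

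The promoters of these 3 genes are shown because the genes move together; each runs from 250 bases before to 50 after the start in the RefSeq table of GRCr8, on the gene's strand, and that start can differ from the one in the deposited table. Capitals mark the word TTCTGGGAA, which was noticed on reading these sequences and then searched for on both strands. It forms part of the site bound by ZNF143 in human cells. The windows lie at chr1:88780092-88780391 on the plus strand for Zfp180, chr1:88985610-88985909 on the minus strand for Zfp61 and chr1:89007466-89007765 on the minus strand for Zfp94.
Zfp180: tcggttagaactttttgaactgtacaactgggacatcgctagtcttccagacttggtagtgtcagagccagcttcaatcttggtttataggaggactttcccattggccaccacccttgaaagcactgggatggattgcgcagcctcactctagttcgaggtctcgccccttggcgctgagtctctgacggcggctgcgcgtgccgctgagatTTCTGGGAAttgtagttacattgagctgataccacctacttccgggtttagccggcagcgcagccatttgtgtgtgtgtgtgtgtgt
Zfp61: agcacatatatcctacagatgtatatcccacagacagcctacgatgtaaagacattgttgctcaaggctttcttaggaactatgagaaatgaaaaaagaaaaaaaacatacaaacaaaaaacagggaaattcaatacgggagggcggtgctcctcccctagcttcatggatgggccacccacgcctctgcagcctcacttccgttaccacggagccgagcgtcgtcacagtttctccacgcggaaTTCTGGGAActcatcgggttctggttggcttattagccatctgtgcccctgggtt
Zfp94: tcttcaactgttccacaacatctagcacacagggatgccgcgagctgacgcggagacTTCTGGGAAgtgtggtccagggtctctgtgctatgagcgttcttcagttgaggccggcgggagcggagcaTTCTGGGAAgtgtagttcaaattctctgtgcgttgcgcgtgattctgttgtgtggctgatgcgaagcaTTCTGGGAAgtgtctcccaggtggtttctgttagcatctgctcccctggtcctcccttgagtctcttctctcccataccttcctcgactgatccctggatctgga

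The word occurs once each in the windows of Zfp180 and Zfp61 and 3 times in that of Zfp94. Among the promoters of 8798 autosomal genes with a mean of at least 3, members included, 1.25% hold it, and Zfp94 is the 1 that holds it 3 times or more. Of the 164 other members with a promoter in the table, 2 (1.22%) hold it, and it is not in the windows of Zfp428, Zfp575, Zfp574 and Zfp526 of the same cluster. For Zfp111 and Zfp108 no window was searched. Zfp143, the rat gene that corresponds to ZNF143 and itself a member, had a mean of 3.29 log2(CPM + 1) and an SD ratio of 0.71. The word was picked from the windows of Zfp180, Zfp61 and Zfp94, so its presence in all 3 was fixed before the count. The shares of other promoters are therefore no test of a link between the word and the shared movement. Whether Zfp94l1 and Tescl hold the word is not reported here. The word is a match of letters and says nothing of binding.

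In all, 167 of the 198 members had a promoter in the table. The median ratio of observed to expected CpG was 0.701 in them, against 0.793 over the 8798 genes, and the GC box GGGCGG was in 45.5% of member windows, against 64.2%. The ETS word CCGGAAG was in 18.6%, against 18.2%, the CCAAT box in 40.1%, against 37.2%, and the TATA box TATAAA in 9.58%, against 6.07%, each counted on both strands. No test was made of these shares.

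The other pairs with r of at least 0.3 were Zfp952 and Zfp563 on chromosome 7 (0.37), Zfp580 and Zfp628 on chromosome 1 (0.36), Zfp68 and Zfp157 on chromosome 12 (0.35), Zfp108 and Zfp61 (0.33) and Zfp956 and Zfp777 on chromosome 4 (0.32). Their rho ran from 0.34 to 0.36, their permutation p from 2e-05 to 0.0003 and their adjusted p from 0.000749 to 0.00591. The next were Zfp972 and Zfp748 (0.297), Zfp329 and Zfp446 (0.296) and Zfp27 and Zfp420 (0.293). Zfp335, a gene of human microcephaly, and Zfp334, 471 kb apart on chromosome 3, had the lowest r, -0.34, with rho = -0.31 (permutation p = 0.00012, adjusted p = 0.00294). Without the 2 farthest libraries r was -0.28, and it was -0.22 in the decimal and -0.19 in the E21DCD and reassigned libraries. Zfp972 and Zfp748 had 0.17 and 0.05 within the same groups. The components were fitted anew in each group, so these values are not the pooled r restricted to a group. The reason for the lower values was not tested.

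Direct neighbours were sought among autosomal genes with a mean of at least 3 and starts at most 500 kb apart. Genes with a lower mean can therefore lie between them. Of these neighbouring pairs, 49 joined members. Of the 49 pairs, 6 had a positive and 1 a negative r at an adjusted p under 0.05 by permutation, against 10.3% and 4.27% of 9434 neighbouring pairs. The 6 were Zfp61 with Zfp94, Zfp68 with Zfp157, Zfp108 with Zfp61, Zfp956 with Zfp777, Zfp27 with Zfp420, and Zfp28 with Zfp667, whose r was 0.25. The negative pair was Zfp688 and Zfp689, with r = -0.24 and rho = -0.20 (permutation adjusted p = 0.0424 for r and 0.125 for rho), which is -0.19 without the 2 farthest libraries.

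Members with nearly touching starts did not all have a high r. Zfp668 and Zfp646 start 50 bases apart on opposite strands and had r = -0.04, and Zfp251 and Zfp7 start 169 bases apart and had r = 0.07. Zfp27 and Zfp420, 1.52 kb apart on opposite strands, had r = 0.29 and rho = 0.29 (permutation adjusted p = 0.00864). Member pairs up to 50 kb apart had a mean r of 0.093, over 33 pairs, and those 200 to 500 kb apart 0.057, over 53 pairs. Pairs with 1 or no member had 0.041 and 0.027 at the same distances.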

How the data were processed

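RNA-seq of 130 prelimbic cortex libraries was used. Of 164 samples in the labels, 34 had no column in the table, 33 of them for lack of a matching genotype, per the labels. Quantification was done with kallisto 0.48, per the submitters' processing notes. The values in the deposited table are log2 of the estimated count plus 1, not scaled for library size. The genome build is not given in the sources used here, and the gene ends of all 198 members matched the GRCr8 RefSeq table.

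The log2 was undone, each library was brought to a sum of 1000000 and levels were written as log2(CPM + 1). Count tests were not used on these log2 values. Depth was 15.1 to 55.95 estimated counts per library in units of 1000000, and every member's SD was at least 1.74 times its counting error. Kallisto shares reads among near-identical copies, so values of close paralogs are uncertain.

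Group differences come from limma 3.58.1, run in R 4.3.3 (trend, two-sided, Benjamini-Hochberg over 15150 genes with a mean of at least 1). The SD trend was a lowess fit with span 0.3. Clusters join starts at most 500 kb apart. Correlations between genes used residuals after 10 principal components and two-sided tests with 100000 permutations. The other steps ran in Python 3.11.15, with scipy 1.17.1 and statsmodels 0.14.6. The steps were tested on simulated data.

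Most named genes were the members with the highest means, the highest and lowest SD ratios, separated levels, the largest group differences or the largest cluster r, and those nearest the mean limit. Others were named for ranges that did not overlap between library sets or for r with oligodendrocyte markers. Some, such as Zfp445, Zfp57, Zfp410 and Zfp143, were named for what is known of them. The members, the lists and these rules were chosen with earlier results of these data known. The correlations with oligodendrocyte markers, the tests of all cluster pairs and median-of-ratios scaling of the library sets were chosen after seeing the data. Alternatives were other scalings, filters, pseudocounts, trends, component numbers, cluster gaps and library sets.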

Additional observations from a re-analysis of the deposited data

How the results depend on the processing

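The count of members at 2 times the trend, 3, was 5 without decimal replicate 15 (9.70% of genes), 8 in the E21DCD and reassigned libraries alone (6.47%), 1 with the MAD in place of the SD (4.82%) and 5 after 10 components (4.31%). The 13 members with separated levels became 0 without both library sets (0.412% of genes) and 0 after 10 components (0.15%). They became 4 without decimal replicate 15, 6 in the decimal libraries alone and 0 with a smaller component of at least 10%. The 0 was set by the limit, since the largest smaller level, that of Zfp367, held 12 of 130 libraries. Without decimal replicate 15 the 6 component-end libraries left are under the 5% limit, so a level of these alone can miss it. For these last settings the share of all genes was not computed, so the changes cannot be called particular to the members. The 8 cluster pairs with r of at least 0.3 became 13 with a pseudocount of 0.1. The count was 13 in the decimal and 13 in the E21DCD and reassigned libraries alone. No share of other pairs is given for these settings. With no components removed the count was 102 of 184, against 8697 of 17040 member pairs on different chromosomes. The mean r was then 0.26 inside clusters and 0.249 across chromosomes. The 27 members higher in the decimal libraries became 5 without the striatal-like libraries (5.29% of genes) and 46 without decimal replicate 15 (21.9%), and the 11 lower became 2 without the striatal-like libraries (3.48%), 29 without both sets (15%) and 7 with no filter on the mean (3.98%). The difference of Zfp512 turned to 0.0030 without the striatal-like libraries. With no components removed r turned to -0.28 for Zfp972 and Zfp748, 0.42 for Zfp335 and Zfp334 and -0.058 for Zfp956 and Zfp777. The causes were not tested. Of the values of named members under the alternatives, 147 differences kept their direction and call, 26 lost the call, 2 gained it and 1 turned, and 90 values of r stayed within their error, 27 moved and 3 turned. Of the SD ratios 146 moved and 129 did not, and of the gaps between separated levels 57 no longer counted as separated and 47 did. No paired analysis was possible because replicate numbers follow the order of the samples and pair nothing.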

Other observations

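For a few members the genes whose values after 10 components were most like theirs were looked up, chosen after their values were seen, over 130 libraries and among all tested genes, so no p is given. Zfp189 was most like Per1, a gene of the circadian clock that also responds to glucocorticoids (r = 0.75, rho = 0.75), Sgk1, a glucocorticoid-induced kinase (r = 0.73), and Ddit4, a stress-induced inhibitor of mTOR signalling (r = 0.70). With Per1 r was 0.80 in the decimal and 0.73 in the E21DCD and reassigned libraries, and 0.77 without both sets. All of them lie on other chromosomes than Zfp189.

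Zfp267, on chromosome 2, was most like Bbs12, 1186 kb away (r = 0.79, rho = 0.76), and ran opposite to Acad9, an enzyme of mitochondrial complex I assembly 74.1 kb away (r = -0.72, rho = -0.68). Zfp9, on chromosome 4, ran opposite to Ankrd26, 83.3 kb away (r = -0.49, rho = -0.52), with r of -0.61 in the decimal and -0.49 in the E21DCD and reassigned libraries. Zfp141 was most like Etfb, 721 kb away on chromosome 1 (r = 0.65, rho = 0.63). For Zfp365 the highest r was that with Prkce, 0.75, which was 0.46 without both sets. Its neighbour LOC134483799, 28.9 kb away, had r = 0.72 and rho = 0.70, and r = 0.61 without both sets. Zfp366 had its largest value with Egfl7, an endothelial gene (r = -0.53, rho = -0.51).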
